A study of Mus musculus with 15 samples.

Results

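The 10 genes described here, Dcn, Lum, Bgn, Fbn1, Mfap5, Fn1, Dpt, Sparc, Postn and Pdgfra, are made by fibroblasts and encode proteoglycans, glycoproteins and a growth factor receptor of the connective tissue. They were chosen by name, and all 10 were found among the 52526 genes listed for each mouse. Their transcripts were measured in mammary tissue of female nude mice (Crl:NU-Foxn1nu) that received BDE-47 (n = 7) or vehicle (n = 8). BDE-47 is a congener of the polybrominated diphenyl ethers (PBDEs), which were used as flame retardants, and the study asked what prolonged low-dose exposure does to mammary tissue. From after 8 weeks of age, osmotic mini-pumps under the skin gave BDE-47 at 0.03 mg/kg/d in PEG300 with DMSO for 16 weeks, and control mice had pumps with PEG300 and DMSO alone. All mice carried the nu mutation of Foxn1, which leaves them without a working thymus, and the mice also served a xenograft experiment. Each library came from the left 4th mammary tissue of a single mouse, and which mice carried a xenograft near it was not used here because the labels do not give it. The tissue is mixed, so the number of fibroblasts, their RNA per cell and transcripts from any other cells cannot be told apart here.

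Fibroblasts lay down the connective tissue that surrounds the ducts and the fat of the mammary gland. Small leucine-rich proteoglycans coat collagen fibrils, microfibril proteins form the threads on which elastin is deposited and on which growth factors of the TGF-β family are stored, and adhesive and matricellular proteins link the fibrils to integrins on cells. The receptor Pdgfra, which binds platelet-derived growth factors, marks fibroblasts and their precursors in many tissues, including the stroma of the mammary gland.

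Of the 10 genes, 6 were found in a RefSeq table of promoters (GRCm38.p6, where the submitters' processing notes name GRCm38), namely Bgn, Fbn1, Dpt, Sparc, Postn and Pdgfra. The 250 bases before the transcription start of Dpt (chr1:164796413-164796662, plus strand) and before a start of Postn (chr3:54360857-54361106, plus strand) are shown. Over all 15 mice, the levels of Dpt followed those of more of the other genes than any other. Those of Postn followed none of them by the test described with the correlations. Capitals mark the only motif found in either window, a TATA box (TATAAA) that starts 26 bases before the start of Postn.
Dpt: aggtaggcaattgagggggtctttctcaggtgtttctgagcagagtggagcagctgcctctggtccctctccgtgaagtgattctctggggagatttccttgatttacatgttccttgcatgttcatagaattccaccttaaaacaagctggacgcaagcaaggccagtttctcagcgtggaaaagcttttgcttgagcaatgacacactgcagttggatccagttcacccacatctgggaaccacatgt
Postn: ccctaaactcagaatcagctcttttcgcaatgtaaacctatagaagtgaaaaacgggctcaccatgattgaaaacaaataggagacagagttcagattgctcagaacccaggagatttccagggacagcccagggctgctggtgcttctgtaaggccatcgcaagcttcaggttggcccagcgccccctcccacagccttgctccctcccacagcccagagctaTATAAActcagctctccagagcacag
Both strands were searched for the TATA box (TATAAA), the CCAAT box (CCAAT), the GC box (GGGCGG) and the AP-1 site (TGAGTCA). Of 32851 promoter windows of this length, 12.4% held a TATAAA, 33.8% a CCAAT, 32.7% a GGGCGG and 4.46% a TGAGTCA. The Dpt window held none of these letters and had 48.8% G and C, and the Postn window had 52.0%, against a median of 52.4% over all windows. Among the other windows, that of Bgn held 3 GC boxes and that of Fbn1 held 1, and those of Sparc, Pdgfra and the other start of Postn held none of the 4 motifs.

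Values are log2(CPM), the base 2 logarithm of the reads of a gene scaled to the same total in each mouse. The libraries read each transcript near its 3′ end, so levels of different genes can be set side by side without dividing by length, except as far as the genes' 3′ ends are captured and mapped unequally. Depth was 10.06 to 19.58 M reads per mouse. A gene under 1 CPM in a mouse is listed at 0. Such zeros also fell on well expressed genes. Of 20 genes that every cell uses, 8 were listed at 0 in at least 1 mouse, and of 7834 genes with a median of at least 10 CPM over the mice above 0, 67.7% were. A 0 is therefore given only as listed at 0. Of the 150 values of the 10 genes, 5 were listed at 0, all in vehicle mice, in Mfap5 (3 mice), Fbn1 (1 mouse) and Pdgfra (1 mouse).

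The label of mammary tissue was borne out by adipocyte and luminal epithelial markers in most mice, but 3 mice stood apart. Vehicle replicates 6 and 8 had all 8 B cell markers and all 6 T cell markers above 1 CPM, with summed B cell markers of 632.1 and 696.7 CPM against at most 9.87 CPM in the other mice. Their 7 adipocyte markers summed to 442.1 and 1105 CPM, and their 6 luminal markers to 31.6 and 118.9 CPM. BDE-47 replicate 6 had 96472 CPM of 6 skeletal muscle markers, against at most 176.1 CPM elsewhere. Its adipocyte markers summed to 3889 CPM and its luminal markers to 123.0 CPM. In the other 12 mice adipocyte markers summed to at least 9356 CPM and luminal markers to at least 494.6 CPM. Group differences are given for all 15 mice and for the 12 mice left without these 3. For all 10 genes together, the summed level was 725 CPM in vehicle replicate 6, 818 CPM in vehicle replicate 8 and 941 CPM in BDE-47 replicate 6, the lowest 3 of the 15 mice.

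Together the 10 genes took 0.205 ± 0.122% of the mapped reads in vehicle mice (n = 8, SD) and 0.178 ± 0.051% in BDE-47 mice (n = 7, SD), with a range of 0.072% to 0.400% over all mice. Sparc and Dcn made up most of this, at 40.4 ± 11.5% and 28.7 ± 11.7% of the summed CPM (SD, n = 15). By mean log2(CPM) over the 15 mice the order was Sparc (9.38), Dcn (8.83), Dpt (7.05), Bgn (6.57), Postn (6.19), Fn1 (6.06), Lum (5.08), Fbn1 (4.50), Pdgfra (3.34) and Mfap5 (3.25), where the last 3 means include values listed at 0. Dcn lay above Dpt in 15 of 15 mice. Postn lay above Fn1 in only 7 of 15 mice and Pdgfra above Mfap5 in 7 of 15, and the mean differences of these neighbours (0.14 and 0.09 log2) were far inside their spread between mice (SD 1.44 and 2.27). Sparc lay above Dcn in 10 of 15 mice, by 0.55 ± 1.01 log2 (SD), so this step also lay inside the spread.

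No difference between the groups passed the test for any of the 10 genes. With limma on the 9506 genes above 1 CPM in at least 7 mice, which include all 10, 0 genes passed at a Benjamini-Hochberg adjusted p of 0.05 (0% of 9506), and the lowest adjusted p among the 10 genes was 0.982. At an unadjusted limma p under 0.05 there were 442 genes (4.65% of 9506, 1.94% higher and 2.71% lower) and 0 of the 10, and at an exact permutation p under 0.05 there were 420 genes (4.42%) and again 0 of the 10. The means of 4 of the 10 genes were higher and of 6 lower with BDE-47 (49.1% of all genes were higher), and the median of the 10 log2 differences was -0.17, against -0.02 over all 9506 genes. Without the 3 mice, 2 of 10 means were higher and the median was -0.53, against 0.00 over all genes. In 0 of the 10 genes, and in 0.0105% of all genes, did the groups not overlap. The pooled SD between mice of the median level of the 10 genes was 0.84 log2. Mfap5 was the only gene more than 2-fold higher with BDE-47 by its group means (13% of all genes were) and Pdgfra the only one more than 2-fold lower (13.2% of all genes were).

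**Figure D1:**
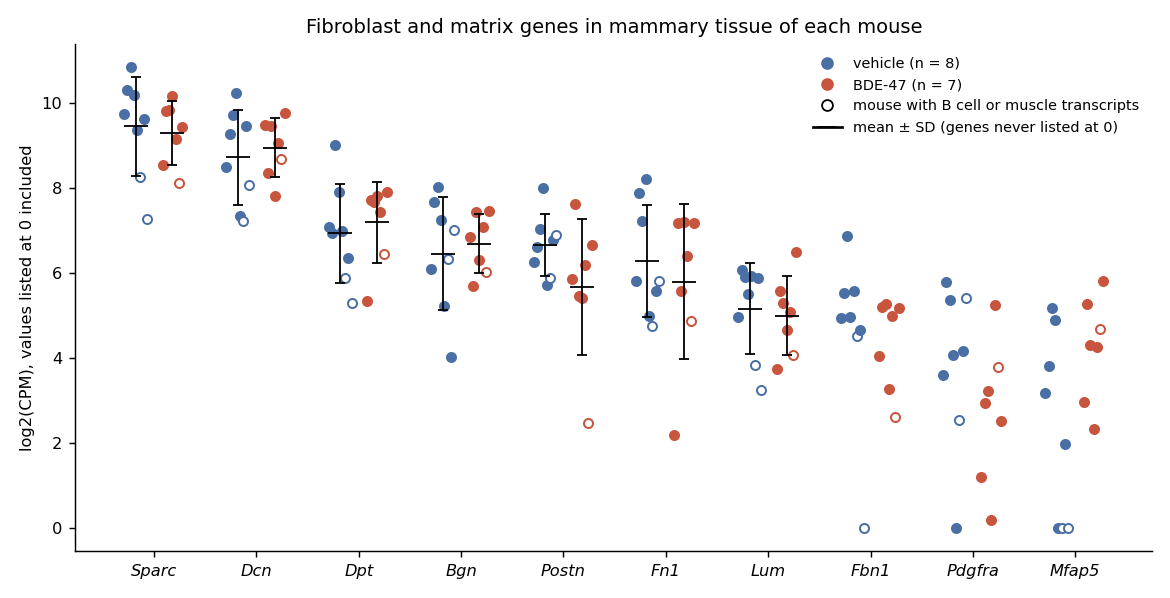
Level of each of the 10 genes, as log2(CPM) on the vertical axis, in each vehicle mouse (blue, n = 8) and BDE-47 mouse (red, n = 7), with genes in order of mean level. Open circles are the 3 mice with B cell or skeletal muscle transcripts, and bars are mean ± SD, drawn only for the 7 genes that were never listed at 0. The groups overlap for every gene, and the 5 values listed at 0 belong to vehicle mice in Fbn1, Pdgfra and Mfap5.

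Among the small leucine-rich proteoglycans, decorin (Dcn), which binds collagen fibrils and TGF-β, was at 8.73 ± 1.12 log2(CPM) in vehicle mice (n = 8, SD; lowest 7.21, median 8.89, highest 10.23) and 8.95 ± 0.70 in BDE-47 mice (n = 7, SD; lowest 7.82, median 9.06, highest 9.78). All 7 BDE-47 mice lay within the range of the vehicle mice. The difference was 0.22 log2 (limma standard error 0.39; two-sided exact permutation test, p = 0.650), and it was -0.09 over the 12 mice (exact permutation test, p = 0.864). Dcn lies on chr10:97479500-97518163 (GRCm38.p6), next to lumican (Lum, chr10:97565501-97572703), which regulates the assembly of collagen fibrils. Lum was at 5.16 ± 1.08 in vehicle mice (lowest 3.24, median 5.69, highest 6.07) and 4.99 ± 0.93 in BDE-47 mice (lowest 3.75, median 5.08, highest 6.49), a difference of -0.17 log2 (standard error 0.62; exact permutation test, p = 0.745). The 2 lowest vehicle mice were replicates 8 and 6, and without the 3 mice that stood apart the difference was -0.56 log2 (exact permutation test, p = 0.206). Biglycan (Bgn, chrX:73483601-73495936), a close relative of decorin, was at 6.45 ± 1.33 in vehicle mice (lowest 4.02, median 6.67, highest 8.02) and 6.69 ± 0.70 in BDE-47 mice (lowest 5.69, median 6.85, highest 7.45). Its groups overlapped fully, with a difference of 0.24 log2 (standard error 0.51; exact permutation test, p = 0.689), or 0.42 over the 12 mice (exact permutation test, p = 0.567).

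The microfibril proteins were the genes with most zeros. Mfap5 (chr6:122513584-122529290), which encodes a small glycoprotein bound to fibrillin microfibrils, was at 3.17, 3.82, 5.19, 4.90 and 1.98 log2(CPM) in vehicle replicates 1, 2, 3, 4 and 7 and was listed at 0 in vehicle replicates 5, 6 and 8. In BDE-47 replicates 1 to 7 it was at 2.97, 5.27, 4.31, 2.34, 4.27, 4.68 and 5.82. No BDE-47 mouse was listed at 0, the highest value was from a BDE-47 mouse, and the groups overlapped between 2.34 and 5.19 log2. With zeros as listed, the group means differed by 1.86 log2 (limma 95% interval -0.22 to 3.93; adjusted p = 0.982; exact permutation test, p = 0.074). Over the mice above 0 the difference was 0.43 log2 (5 vehicle and 7 BDE-47 mice, no test), and over the 12 mice it was 0.99 log2 (exact permutation test, p = 0.331), so most of the difference rested on the 3 zeros, 2 of them from the mice with B cell markers. Fibrillin 1 (Fbn1, chr2:125300594-125506485), the main protein of microfibrils, was at 4.93, 5.53, 6.87, 4.96, 5.58, 4.51 and 4.65 in vehicle replicates 1 to 7 and was listed at 0 in vehicle replicate 8. In the BDE-47 mice it was at 4.04, 5.19, 5.27, 3.26, 4.98, 2.60 and 5.17 in order of replicate. The 3 lowest values above 0 were all from BDE-47 mice (replicates 6, 4 and 1). The difference of the means was -0.27 log2 with the zero (standard error 0.79; exact permutation test, p = 0.793), -0.93 over the mice above 0 (exact permutation test without vehicle replicate 8, p = 0.101) and -0.77 over the 12 mice (exact permutation test, p = 0.141).

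Among the adhesive proteins, fibronectin (Fn1, chr1:71585473-71653280), which binds integrins and collagen, spread over 64.5-fold between mice. It was at 6.29 ± 1.31 log2(CPM) in vehicle mice (n = 8, SD; lowest 4.76, median 5.81, highest 8.20) and 5.80 ± 1.83 in BDE-47 mice (n = 7, SD; lowest 2.19, median 6.40, highest 7.19). The lowest value, from BDE-47 replicate 1, was the only one below 4.76. The difference was -0.49 log2 (standard error 0.63; exact permutation test, p = 0.578), and it was 0.11 once BDE-47 replicate 1 was left out (p = 0.858 by the exact permutation test) and -0.66 over the 12 mice (exact permutation test, p = 0.548). Dermatopontin (Dpt), a small protein that binds decorin and collagen, was at 6.93 ± 1.16 in vehicle mice (lowest 5.29, median 6.97, highest 9.02) and 7.19 ± 0.95 in BDE-47 mice (lowest 5.34, median 7.68, highest 7.91). All 7 BDE-47 mice lay inside the vehicle range, and the difference of 0.26 log2 (standard error 0.48; exact permutation test, p = 0.642) became -0.07 over the 12 mice (exact permutation test, p = 0.911).

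The matricellular proteins modulate how cells attach to the matrix. Sparc (chr11:55394159-55420080), a collagen-binding protein, was at 9.46 ± 1.16 log2(CPM) in vehicle mice (n = 8, SD; lowest 7.28, median 9.69, highest 10.85) and 9.30 ± 0.74 in BDE-47 mice (n = 7, SD; lowest 8.13, median 9.43, highest 10.18). The 3 lowest mice were vehicle replicate 8, BDE-47 replicate 6 and vehicle replicate 6, the 3 that stood apart. The difference was -0.16 log2 (standard error 0.39; exact permutation test, p = 0.763), and over the 12 mice it was -0.52 (exact permutation test, p = 0.145). Periostin (Postn, chr3:54359267-54391041), a ligand of integrins, was at 6.26, 6.62, 7.05, 8.01, 5.72, 5.88, 6.78 and 6.90 in vehicle replicates 1 to 8 and at 5.86, 7.64, 5.46, 5.42, 6.18, 2.46 and 6.67 in BDE-47 replicates 1 to 7. BDE-47 replicate 6, the mouse with skeletal muscle transcripts, was far below the rest, and 5 of 7 BDE-47 mice lay below the vehicle mean. The means were 6.65 ± 0.73 and 5.67 ± 1.61, a difference of -0.98 log2 (limma 95% interval -2.10 to 0.14; adjusted p = 0.982; exact permutation test, p = 0.133). Over the 12 mice it was -0.54 log2 (exact permutation test, p = 0.284). Leaving out BDE-47 replicate 2 alone gave -1.31 log2 (exact permutation test, p = 0.022), and leaving out BDE-47 replicate 6 alone gave -0.45.

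The receptor Pdgfra (chr5:75151322-75198206) was at 3.61, 5.78, 5.38, 4.07, 2.55, 4.15 and 5.40 log2(CPM) in vehicle replicates 1, 2, 3, 4, 6, 7 and 8 and was listed at 0 in vehicle replicate 5. In BDE-47 replicates 1 to 7 it was at 1.19, 2.95, 3.23, 0.18, 5.24, 3.79 and 2.52. The 3 highest mice were from the vehicle group, 6 of 7 BDE-47 mice lay below the vehicle mean, and all 7 lay inside the vehicle range, which reaches down to the listed 0. The difference of the means was -1.14 log2 (limma 95% interval -3.18 to 0.90; adjusted p = 0.982; exact permutation test, p = 0.237). Without vehicle replicate 5, the mouse listed at 0, it was -1.69 (exact permutation test, p = 0.048), and over the 12 mice it was -1.28 (exact permutation test, p = 0.262).

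**Figure D2:**
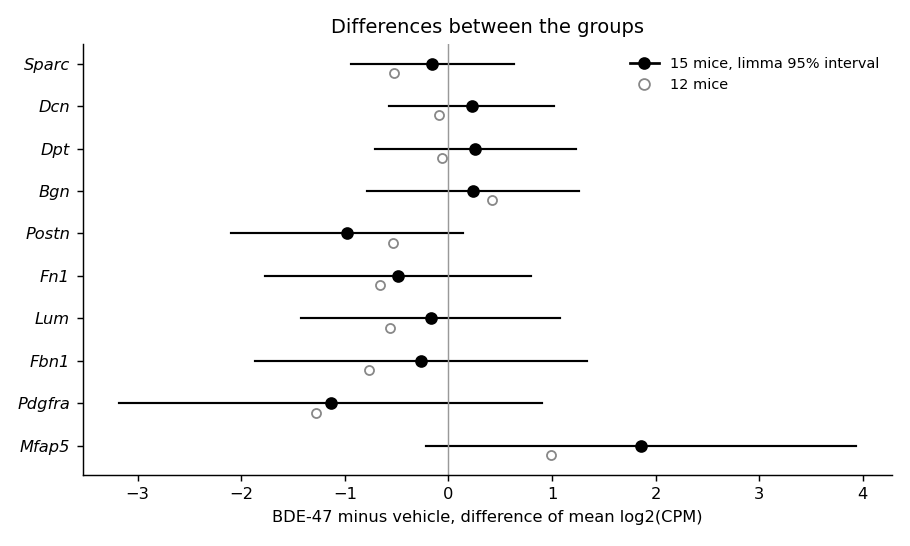
Difference of the group means, BDE-47 minus vehicle, in log2(CPM) on the horizontal axis, for each of the 10 genes over all 15 mice (filled circles with limma 95% intervals) and over the 12 mice left without the 3 that stood apart (open circles). Every interval includes 0. Mfap5 lies farthest to the right (1.86) and Pdgfra farthest to the left (-1.14).

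Some mice were high or low for most of the genes. Vehicle replicate 3 was among the 3 highest mice for 9 of the 10 genes, vehicle replicate 2 for 6, and vehicle replicate 4 and BDE-47 replicate 7 for 5 each. Vehicle replicate 6 was among the 3 lowest for 6 genes and vehicle replicate 8 for 5. Vehicle replicate 5 and BDE-47 replicates 1, 4 and 6 were so for 4 each. Vehicle replicate 8 alone had the lowest value for 4. By mean rank, vehicle replicates held both ends of the order (3.7 for replicate 6 and 13.7 for replicate 3). BDE-47 replicates 1 and 6 were next lowest (4.7 and 4.8). To set aside the level that the genes share in a piece of tissue, each gene was also taken relative to the mean log2(CPM) of the other 9 genes in the same mouse.

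On that relative scale Mfap5 was the only one of the 10 genes with an unadjusted exact p under 0.05, which 2.64% of all 9506 genes had when set against the same genes (1.68% in the direction of a higher value with BDE-47). Mfap5 lay -3.17, -3.53, -2.59, -2.47, -5.68, -5.47, -4.30 and -5.44 log2 from the other 9 in vehicle replicates 1 to 8 and -2.28, -1.41, -2.28, -3.53, -2.47, -0.56 and -1.13 in BDE-47 replicates 1 to 7. All 7 BDE-47 values exceeded the mean of the vehicle group, only BDE-47 replicate 4 lay inside the vehicle range, and BDE-47 replicate 5 lay at its upper edge. The difference was 2.13 log2 (two-sided exact permutation test, p = 0.00497) and lay between 1.90 and 2.40 with each mouse left out in turn (exact permutation test, p from 0.00266 to 0.0123). It was 1.44 over the 12 mice (exact permutation test, p = 0.035) and 1.26 over the 5 vehicle and 7 BDE-47 mice above 0 (no test). Benjamini-Hochberg adjustment over all 9506 genes gave 0.999, so this difference did not pass over all genes. Postn (-1.02 log2; exact permutation test, p = 0.107) and Pdgfra (-1.20 log2; exact permutation test, p = 0.202) were lower relative to the other genes without passing, and the remaining 7 genes differed by at most 0.47 log2. Over the 12 mice the relative differences of Postn and Pdgfra were -0.25 and -1.08 log2, and the largest of the remaining 7 was 0.81, in Bgn (exact permutation test, p = 0.197).

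**Figure D3:**
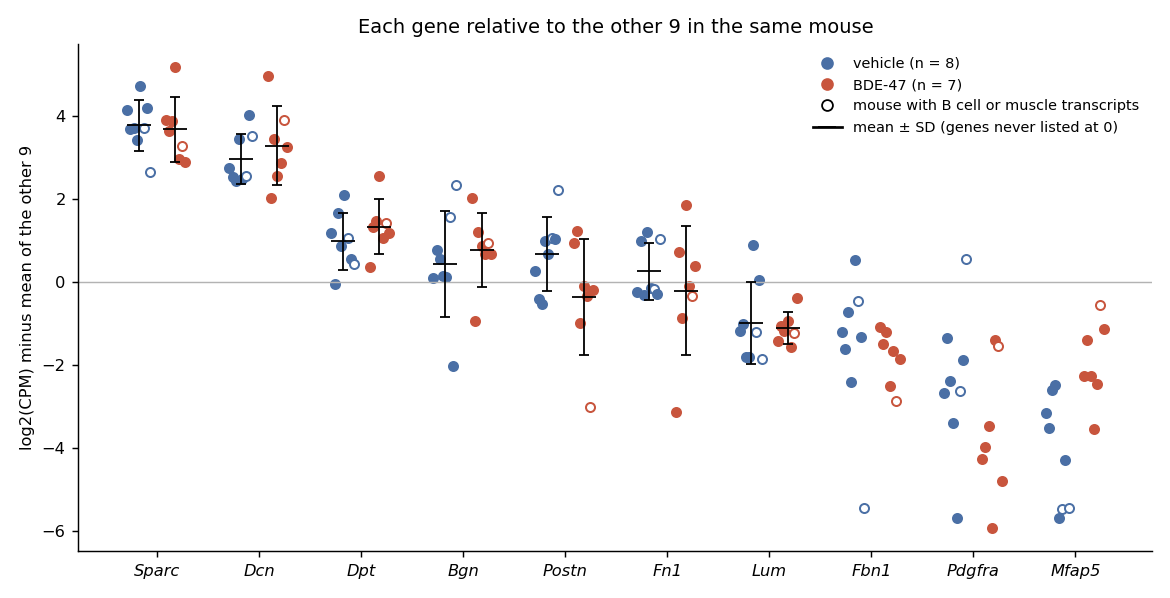
Each gene's log2(CPM) minus the mean log2(CPM) of the other 9 genes in the same mouse (vertical axis), for vehicle mice (blue, n = 8) and BDE-47 mice (red, n = 7). Open circles are the 3 mice that stood apart, bars are mean ± SD for the 7 genes never listed at 0, and the line marks 0. Mfap5 is higher in BDE-47 mice by 2.13 log2, and its 3 lowest vehicle values are those listed at 0.

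Between genes, over the 15 mice, Pearson's r of the log2(CPM) values was above 0 in 44 of the 45 pairs, from -0.02 to 0.83 with a median of 0.40, and 9 pairs had a permutation p under 0.05 after Benjamini-Hochberg adjustment over the 45 pairs (4 by Spearman's rho). Over all pairs of the 9506 genes, 54.1% had an r above 0 and the median r was 0.03. The lowest r of the 9 pairs was 0.66, which 0.95% of all pairs reached, and over the 12 mice 3 of the 45 pairs and 1.82% of all pairs did. The highest r was that of Dpt and Sparc, at r = 0.83 and rho = 0.71 (permutation test, adjusted p = 0.0045 and 0.0414). Without the 2 mice farthest from the median of Dpt r was 0.71, and over the 12 mice it was 0.75, neither of which passed the adjustment (adjusted p = 0.145 and 0.0984, permutation test). Fbn1 and Sparc (r = 0.78, rho = 0.63), Lum and Sparc (r = 0.78, rho = 0.60) and Lum and Fbn1 (r = 0.77, rho = 0.82) followed, the last of them with the highest rho of the 45. Dpt was in 5 of the 9 pairs, with Sparc, Lum, Fn1, Fbn1 and Mfap5, whereas Postn, Bgn and Pdgfra were in none. The highest r of Postn with any of the others was 0.49, with Fn1. The neighbours Dcn and Lum had an r of 0.43 (rho = 0.39; permutation test, adjusted p = 0.253 and 0.238). Over the 15 mice, the median r with the other 9 genes was 0.66 for Dpt, 0.30 for Postn, 0.32 for Bgn and 0.26 for Pdgfra. Over the 12 mice it was 0.49, 0.42, 0.34 and 0.46 in the same order, so the contrast with Dpt was smaller. Mfap5 (0.54) and Fn1 (0.50) then lay above Dpt.

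The correlations rested in part on the mice at the ends of the order and on the zeros. With the 2 mice farthest from the median of the first gene of a pair left out, 44 of 45 r were still above 0, but 0 pairs passed the adjusted test, and the same was so over the 12 mice, where all 45 were above 0. Taken as deviations from the group means, 10 pairs passed. Where both genes were above 0, Dcn and Mfap5 had an r of 0.35 (12 mice) against 0.74 with the zeros, Fbn1 and Sparc one of 0.63 (14 mice) against 0.78, and Lum and Fbn1 one of 0.69 (14 mice) against 0.77. The points share the depth and the tissue makeup of each library, and the adipocyte markers were lowest in the same 3 mice that had the lowest summed level of the 10 genes. What part this had in the correlations was not tested.

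**Figure D4:**
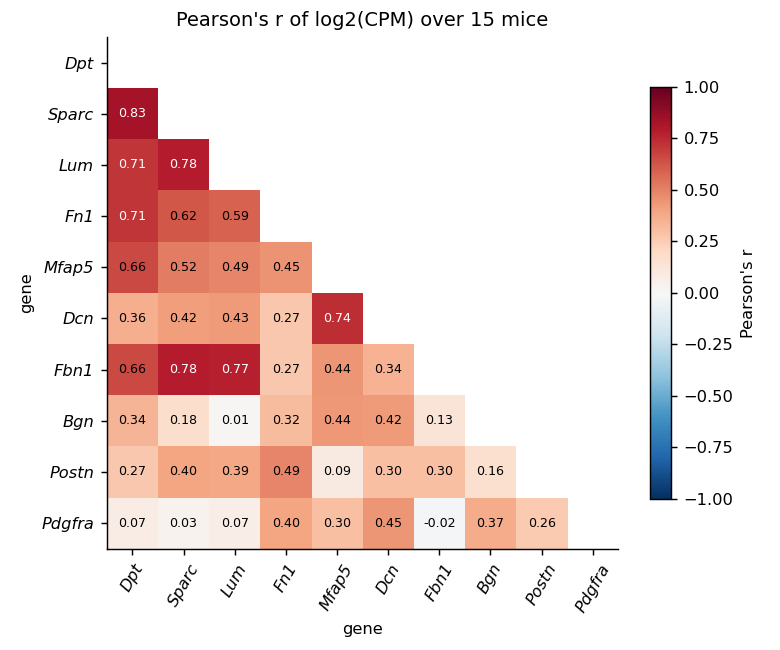
Pearson's r of log2(CPM) over the 15 mice for each of the 45 pairs of the 10 genes on both axes, with the colour scale from -1 to 1 and genes in order of their median r with the other 9. The highest values lie among Dpt, Sparc, Lum and Fbn1 and in the pair of Dcn and Mfap5 (0.74), and the lowest are those of Pdgfra with Fbn1 (-0.02) and of Bgn with Lum (0.01).

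The genes most like the mean level of the 10 were ranked by Pearson's r over the 15 mice among 2570 other genes above 1 CPM in all mice, as a description. They were Hal (r = 0.88), which encodes histidine ammonia-lyase, the collagen Col3a1 (0.86), the water channel Aqp1 (0.86), Plpp3 (0.86), Wfdc21 (0.83), Ly6c1 (0.82), the fibroblast and endothelial marker Cd34 (0.82), the collagen Col1a2 (0.81), the chemokine Ccl6 (0.80) and haptoglobin, Hp (0.79). The median r over the 2570 genes was 0.08. Over the 12 mice the same 10 genes had an r of 0.66 (Hp) to 0.91 (Cd34). The 12 are among the 15 mice by which the genes were ranked, so these values are not a separate check.

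Wider lists of the same tissue were read from the same limma results, and in none did a gene pass over all 9506 genes. Of 29 other matrix glycoproteins and proteoglycans, 23 could be tested, 19 with a higher and 4 with a lower mean in BDE-47 mice, against 49.1% of all genes with a higher mean. Over the 12 mice 13 of the 23 were higher, and the median difference was 0.53 log2 over the 15 mice and 0.15 over the 12. The smallest limma p among the higher ones belonged to thrombospondin 1 (Thbs1), a matricellular protein that activates TGF-β, which was above 0 in 3 of 8 vehicle and 6 of 7 BDE-47 mice and differed by 2.31 log2 (standard error 1.09; exact permutation test, p = 0.045), or 3.03 over the 12 mice. Its relative Thbs2 was the lower one with the smallest p, above 0 in 7 of 8 vehicle and 5 of 7 BDE-47 mice, at -1.36 log2 (standard error 1.11; exact permutation test, p = 0.275), or -1.89 over the 12 mice. Both values carry many zeros. Of 8 fibrillar and type VI collagens, 2 were higher and 6 lower, with a median of -0.18 log2 (-0.51 over the 12 mice), near that of the 10 genes. Col1a1 was at 7.05 ± 1.89 in vehicle and 7.33 ± 1.19 in BDE-47 mice (0.28 log2, 0.19 over the 12 mice), and Col6a2 at 5.14 ± 1.27 and 4.22 ± 1.85 (-0.92 log2, -1.46 over the 12 mice; exact permutation test over the 15, p = 0.275).

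Of 20 other fibroblast markers 18 could be tested, 10 higher and 8 lower, with a median of 0.08 log2 (-0.21 over the 12 mice). Pi16, a marker of adventitial fibroblasts, was above 0 in 7 of 8 vehicle and all 7 BDE-47 mice and differed by 1.75 log2 (exact permutation test, p = 0.115), and by 0.81 over the 12 mice. Ly6a, a surface protein of progenitor cells, had the smallest limma p of the lower ones, at 8.74 ± 0.65 in vehicle and 7.84 ± 1.06 in BDE-47 mice (-0.90 log2, -0.66 over the 12 mice; limma unadjusted p = 0.026; exact permutation test, p = 0.067). The other marker with an unadjusted limma p under 0.05 was the complement gene C3 (-0.83 log2, -0.51 over the 12 mice; exact permutation test, p = 0.055), which is also made by other cells. That makes 2 of 18 lower by this measure, which 2.71% of all genes were.

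Platelet-derived growth factors, integrins and genes of the TGF-β pathway made up the last list. Of its 19 genes 14 could be tested, 8 higher and 6 lower, with a median of 0.17 log2 (-0.06 over the 12 mice). Pdgfd, Tgfb1, Tgfbr1, Itga5 and Itga8 were above 1 CPM in too few mice to be tested. Among the ligands, Pdgfa differed by 0.95, Pdgfb by 0.31, Pdgfc by 0.88, Tgfb2 by 1.53 and Tgfb3 by 0.57 log2 (exact permutation tests, p = 0.333, 0.731, 0.404, 0.159 and 0.618). All 5 of these means were higher with BDE-47. Each of these genes had zeros in the vehicle group, and Pdgfc and Tgfb2 were each above 0 in only 6 of 7 BDE-47 mice. Over the 12 mice the 5 differences were 0.74, -0.34, 0.70, 1.99 and 0.00 in the same order, so that of Pdgfb turned. The TGF-β receptors Tgfbr2 and Tgfbr3 had no zeros. Tgfbr2 was at 5.62 ± 1.07 in vehicle and 4.84 ± 1.40 in BDE-47 mice (-0.78 log2, -0.17 over the 12 mice; exact permutation test, p = 0.245). Tgfbr3, the co-receptor betaglycan, was at 5.87 ± 0.58 and 4.77 ± 1.39 (-1.10 log2, -1.28 over the 12 mice; exact permutation test, p = 0.057). Of the signal mediators, Smad4 differed by 1.36, Smad2 by -1.65, Smad3 by -0.68 and the inhibitor Smad7 by -0.24 log2 (exact permutation tests, p = 0.101, 0.072, 0.498 and 0.772), and over the 12 mice by 1.40, -1.70, -1.11 and -0.38. These means include values listed at 0. Smad4 was above 0 in 7 of 8 vehicle and 7 of 7 BDE-47 mice, and Smad2 in 7 of 8 and 4 of 7. Smad3 was so in 6 of 8 and 5 of 7, and Smad7 in 4 of 8 and 3 of 7. The integrin subunit Itgb1, at 6.92 ± 0.43 and 6.94 ± 0.41, differed by 0.03 log2 (exact permutation test, p = 0.907), with the smallest spread between mice of the genes named here, and Itgav differed by 0.35 and Itgb3 by -0.53 (exact permutation tests, p = 0.750 and 0.592). Over the 12 mice these 3 differed by 0.13, -0.01 and -0.12. Itgav was above 0 in 5 of 8 vehicle and 6 of 7 BDE-47 mice, and Itgb3 in 4 of 8 and 4 of 7.

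**Figure D5:**
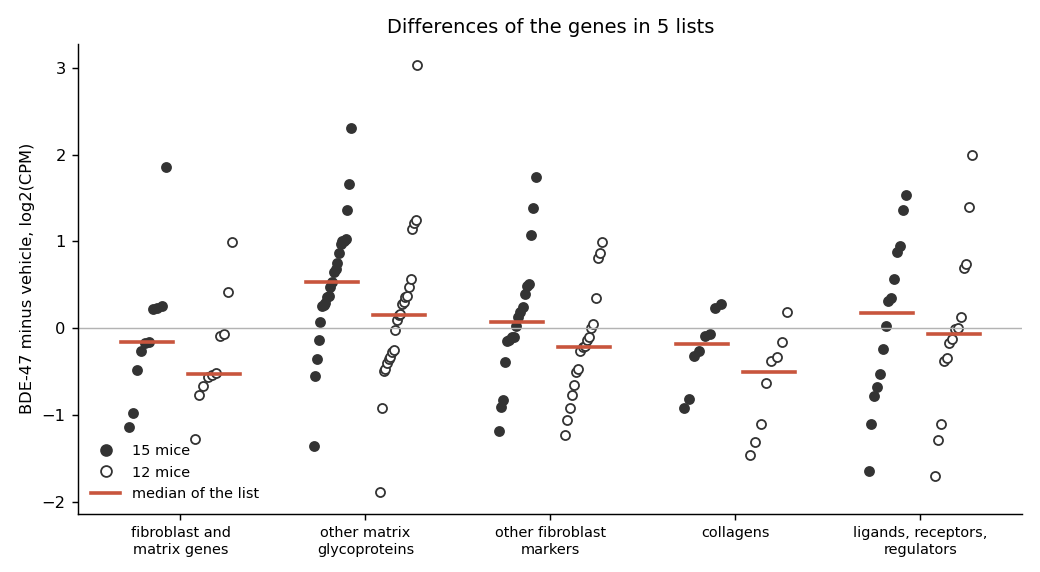
Difference of the group means, BDE-47 minus vehicle, in log2(CPM) on the vertical axis, for the tested genes of 5 lists over all 15 mice (filled circles) and over the 12 mice left without the 3 that stood apart (open circles), with red bars at the median of each list. The medians over 15 mice run from -0.18 for the collagens to 0.53 for the other matrix glycoproteins, and all 5 are lower over the 12 mice.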

How the data were processed

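Mammary RNA of 15 mice was prepared from 500 ng of total RNA with QuantSeq 3′ FWD. Per the study's methods and the submitters' processing notes, the authors mapped reads with STAR 2.5.3a to the RefSeq mouse genome (GRCm38) and normalized them to CPM. The files deposited by the authors hold 1 log2(CPM) value per gene and mouse, with genes under 1 CPM listed at 0, as read from the values. The gene counter is not given in the sources used here. Values were used as given. Of 52636 rows per mouse, 110 with a repeated name were dropped. Depth was recovered from the spacing of low CPM values (100% came out as whole reads), and no count model was run because reads under 1 CPM are not kept.

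Groups came from the treatment labels, and each mouse was 1 replicate. The 9506 genes above 1 CPM in at least 7 mice were fitted with limma 3.58.1 (trend in the prior variance, R 4.3.3) with Benjamini-Hochberg adjustment at 0.05. Single genes were tested with the two-sided exact permutation test over all 6435 splits of the mice, and correlations with 100000 resamples (Python 3.11.15). The presence of a xenograft, the covariate of the study, was not used. Of the steps, only the limma fit was tested on simulated data. The 10 genes, the wider lists and the tests were chosen with earlier results of these data known. From each wider list, the gene with the smallest limma p in each direction was named, and every tested gene of the ligand and receptor list. C3 and the 20 genes that every cell uses were chosen after values were seen. The alternatives were pseudocounts of 1 and 0.1 on CPM, other filters, median-of-ratios size factors, limma without a trend, a covariate for the number of genes above 1 CPM, the ratio of mean CPM, a replicate block, each mouse left out in turn and, chosen after seeing the data, the 3 or 2 mice that stood apart left out.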

Additional observations from a re-analysis of the deposited data

Results flagged for a closer look

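Among 40 sets of values tested for a lone extreme mouse, 2 were flagged, and chance flags about 1 in 20 such sets. Fbn1 was listed at 0.0 in vehicle replicate 8, a mouse with B cell markers, whereas the other 7 vehicle mice were between 4.51 and 6.87 log2(CPM). Postn was at 2.46 log2(CPM) in BDE-47 replicate 6, the mouse with skeletal muscle transcripts, whereas the other 6 BDE-47 mice were between 5.42 and 7.64.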

How the results depend on the processing

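No gene of the 10 passed limma under any alternative, and over all genes 0 passed except without the 3 mice that stood apart, where 1 gene outside the 10 did (adjusted p = 0.0439). Apart from fits that left out 1 mouse, the differences that changed sign were those of Fbn1 with log2(CPM + 0.1) (0.15), Dcn (-0.094) and Dpt (-0.066) without the 3 mice, Dcn (-0.14) and Dpt (-0.19) without the 2 mice with B cell markers, and Bgn with the log2 ratio of mean CPM (-0.061). Without the 2 mice with B cell markers the median of the 10 differences was -0.72. Fbn1 then differed by -1.06 and Sparc by -0.72 (exact permutation test, p = 0.082 and 0.080), while Bgn (0.31) and Mfap5 (1.06) were higher. Of the 10 genes, 0 had an exact p and 1 an unadjusted limma p under 0.05 there. Set against the median of the other 9 genes in place of the mean, Lum (0.086), Fbn1 (0.047), Fn1 (0.12) and Sparc (0.40) changed sign, Dpt differed by 0.87 (exact permutation test, p = 0.021), and 2 genes had a p under 0.05. The 9 correlated pairs became 0 without the 2 farthest mice and 0 without the 3 mice. The cause of these changes was not tested.

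Over the 15 fits that each left out 1 mouse, the number of the 10 genes with an exact p under 0.05 was 0 to 1, and on the relative scale 1 to 2. The differences ran from 0.01 to 0.44 for Dcn, -0.45 to 0.035 for Lum, -0.11 to 0.46 for Bgn, -0.93 to 0.052 for Fbn1, 1.52 to 2.26 for Mfap5, -0.72 to 0.11 for Fn1, 0.03 to 0.57 for Dpt, -0.47 to 0.042 for Sparc, -1.31 to -0.45 for Postn and -1.69 to -0.71 for Pdgfra, and their median from -0.46 to 0.07. The sign changed for Lum and Fn1 without BDE-47 replicate 1, for Bgn without vehicle replicate 7, and for Fbn1 and Sparc without vehicle replicate 3 or BDE-47 replicate 6. Mfap5 had a p under 0.05 without vehicle replicate 3 (exact permutation test, p = 0.031), vehicle replicate 4 (p = 0.037) or BDE-47 replicate 4 (p = 0.049). Relative to the other genes, the ranges were -0.24 to 0.15 for Lum, -0.021 to 0.62 for Bgn, -0.78 to 0.072 for Fbn1, -0.82 to 0.018 for Fn1 and -0.36 to 0.030 for Sparc, and Postn differed by -1.29 once BDE-47 replicate 2 was left out (p = 0.041 by the exact permutation test).

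Deviations of same-numbered mice of the groups had correlations of -0.02 to 0.05 over 7 pairs, 3 of 7 highest with their own number. The labels do not say whether the numbers pair the mice, and these correlations, given without a test, do not settle it. The replicate block left out vehicle replicate 8, which has no partner. With the block 0 of 9196 genes passed (lowest adjusted p = 0.989), and 374 had an unadjusted p under 0.05, against 339 in the same 14 mice with no block. The median difference of the 10 genes was -0.46 in both, which was fixed in advance, because each block held a single mouse of each group. Depth limits the lowest genes. Pdgfra had a median of 188 reads and Mfap5 209 per mouse. If each read is taken as an independent count, this gives standard errors of 0.11 and 0.10 log2, under their spread between mice. Whether reads are independent was not tested, so technical error can be larger and its part in that spread is not known. Counting error does not cover values listed at 0.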

Other observations

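Other cell types were measured beside the fibroblast genes. All 6 luminal epithelial markers had a higher mean in BDE-47 mice, with a median of 1.08 log2, and 0.42 without the 3 mice that stood apart. Of 7 adipocyte markers, 6 had a higher mean in the 15 mice (median 0.33 log2), and 0 of 7 did over the 12 mice (median -0.76). Of 6 endothelial markers, 3 were higher and 3 lower, and Pecam1, a junction protein of endothelium named here because of its values, was at 5.99 ± 1.08 log2(CPM) in vehicle mice (n = 8, SD) and 4.67 ± 1.14 in BDE-47 mice (n = 7, SD; exact permutation test, p = 0.041). Its difference was -1.32 log2, and -1.08 over the 12 mice. The median difference over the 15 and then the 12 mice was -0.01 and 0.27 for these endothelial markers, -0.54 and -0.56 for 7 myoepithelial and smooth muscle markers, and 1.46 and 0.11 for 6 skeletal muscle markers. It was -0.63 and 0.19 for 5 macrophage markers, 0.25 and 0.28 for 5 pericyte markers, 0.87 and 0.22 for 5 Schwann cell markers and 0.26 and 0.27 for 5 keratinocyte markers. No gene of these lists passed limma over all 9506 genes, and none of the B cell or T cell markers was above 1 CPM in enough mice to be tested. Their part in the values of the 10 fibroblast and matrix genes was not tested.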
